A study of Rattus norvegicus with 12 samples.

Results

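The genes described here serve the fast supply of ATP and oxygen in striated muscle: the creatine kinases Ckm, Ckb and Ckmt2, the adenylate kinase Ak1, the creatine transporter Slc6a8, myoglobin (Mb), the AMP deaminase Ampd1 and the ADP-ribosyltransferase Art1. They were chosen by gene symbol from the probe-to-gene table, 1 probe set per gene, with results of these arrays already known, so their changes are a description of chosen genes and not independent support for a pattern. The rule keeps the probe set of highest mean where a gene has several, a choice that did not arise here. Of the 8 listed genes, 6 had a probe set under their own symbol, out of 14497 genes with such a probe set, and each of the 6 had exactly 1. Ckmt2 and Ak1 had no probe set under their symbol and were not analysed here. The levels of Ckm, Ckb, Slc6a8 and Mb lay between the 88.0th and the 94.9th percentile of all probe sets by mean over the arrays. Ampd1 (16.9th percentile) and Art1 (31.0th) lay below the 40th-percentile filter used before testing, so 4 of the 6 genes were among the 10025 tested.

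The cells were ventricular cardiomyocytes cultured from newborn Wistar rats, plated for 44 h and then held for 24 h in medium without serum. Of 4 groups of 3 arrays, the control cultures were untreated, and the others were transduced with adenovirus carrying mef2Cγ+, mef2Cγ- or mef2Cγ+23/24 (below, the γ+, γ- and 23/24 groups). MEF2C is a transcription factor of muscle genes, and its γ segment, kept or skipped by alternative splicing, is known as a repressor domain; the labels do not define the 23/24 change. No group received virus without an insert, so in each comparison with control the insert and the virus cannot be told apart. The labels call the arrays of a group biological replicates without saying whether they came from separate cell isolations, so the p-values measure the spread between these samples.

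As background, creatine kinases pass phosphate between ATP and creatine, so that a store of phosphocreatine buffers ATP where it is used fastest. The muscle form Ckm sits partly at the M-band of the sarcomere, the brain form Ckb is made in many tissues and is the leading cytosolic form of the early heart, and Ckmt2 and Ckmt1 are the mitochondrial forms that load creatine with new ATP. Adenylate kinases recover ATP from paired ADP molecules, AMP deaminase removes the AMP left over, Slc6a8 brings creatine into the cell, and myoglobin stores and carries oxygen inside striated muscle cells. Regulatory regions of the muscle creatine kinase and myoglobin genes, not all of them close to the start, are textbook examples of muscle transcription, bound by MEF2 factors and by E-box proteins.

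The deposited values were taken as log2 levels, and all levels and changes below are on that scale. Control and 23/24 arrays shared some exactly equal values with one another, as did γ+ arrays among themselves and γ- arrays among themselves (27 to 111 values in each of 21 pairs), while the 45 other pairs shared 0. From this the values look like the output of separate normalization runs, 1 of them holding the control and 23/24 arrays. The labels name no such runs. Except between control and 23/24, group and such a run cannot be told apart in any comparison. Array medians lay between 5.33 and 5.53. Replicate 2 of the γ+ group stood further from its group's mean than any other array, by 0.124 on average per gene against 0.0510 to 0.0769 elsewhere. All 8 cardiomyocyte markers lay at or above the 94.6th percentile of probe sets, but markers of other cells were also high, so the cultures also held RNA of genes that mark fibroblasts, smooth muscle and atrial cells. The fibroblast markers lay between the 66.5th (Lum) and the 98.5th percentile (Col1a1), the smooth muscle markers between the 66.9th (Myh11) and the 99.1th (Tagln), and the atrial markers between the 86.6th (Sln) and the 99.9th (Nppa). Of the 7 measured skeletal muscle markers, the factors Myod1, Myog, Myf5 and Myf6 lay between the 20.6th and the 36.1th percentile, below the filter, and Actn3, Tnnt3 and Tnni2 between the 40.8th and the 44.7th, just above it.

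The 250 bases before the annotated start (RefSeq, GRCr8) of 4 of the genes are shown, because Ckm, Ckb and Mb are the genes that moved furthest with a MEF2C form and Ampd1 carries the same match as Ckb at a level below the filter. All 6 measured genes had an entry in that table. The windows are chr1:88189211-88189460 (plus strand) for Ckm, chr6:136553465-136553714 (minus strand) for Ckb, chr7:110647743-110647992 (minus strand) for Mb and chr2:193287082-193287331 (plus strand) for Ampd1. Capitals mark matches to the MEF2 consensus, to the E-box CANNTG and to TATAAA, and all else is in lower case.
Ckm: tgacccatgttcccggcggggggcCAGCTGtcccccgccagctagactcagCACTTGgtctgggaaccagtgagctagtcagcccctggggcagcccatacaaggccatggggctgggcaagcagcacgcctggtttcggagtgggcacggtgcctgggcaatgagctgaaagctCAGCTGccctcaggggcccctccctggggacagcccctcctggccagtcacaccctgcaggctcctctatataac
Ckb: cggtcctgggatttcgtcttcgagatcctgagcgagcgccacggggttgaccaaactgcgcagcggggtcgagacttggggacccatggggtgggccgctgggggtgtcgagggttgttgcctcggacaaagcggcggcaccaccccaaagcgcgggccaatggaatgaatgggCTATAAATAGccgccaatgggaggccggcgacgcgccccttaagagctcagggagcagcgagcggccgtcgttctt
Mb: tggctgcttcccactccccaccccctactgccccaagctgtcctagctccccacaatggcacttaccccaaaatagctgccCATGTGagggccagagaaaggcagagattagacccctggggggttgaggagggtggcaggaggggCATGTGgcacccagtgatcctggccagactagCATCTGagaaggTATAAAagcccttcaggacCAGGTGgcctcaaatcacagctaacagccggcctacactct
Ampd1: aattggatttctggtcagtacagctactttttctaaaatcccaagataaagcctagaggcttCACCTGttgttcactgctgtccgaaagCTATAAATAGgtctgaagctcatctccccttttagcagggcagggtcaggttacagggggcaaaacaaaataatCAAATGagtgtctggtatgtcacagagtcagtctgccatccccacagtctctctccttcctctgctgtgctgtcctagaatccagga
The Ckb window held the letters CTATAAATAG from base -76 to -67 before the start, and the Ampd1 window held the same letters from -161 to -152; each matches the MEF2 consensus on both strands and contains TATAAA within it. Of 33469 rat promoter windows of this length, 2.96% held a match to that consensus on either strand. The windows of Ckm, Mb, Slc6a8 and Art1 held none, which says only that these letters are not in them. Ckm held 3 E-boxes, which read the same on both strands, among them CAGCTG from -75 to -70. Mb held 4, with TATAAA from -60 to -55. An E-box stood in 65.5% of all windows, and TATAAA on either strand in 12.9%. Of the other motifs searched on both strands, the MCAT letters CATTCC were found in Ckb, on the reverse strand from -88 to -83 (12.1% of all windows), and the CArG box in none of the 6 genes (1.5% of all windows).

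Both cytosolic creatine kinases fell in the γ+ cultures. Ckm was measured at 9.74, 9.68 and 9.55 in control replicates 1 to 3 and at 7.84, 7.67 and 7.76 on the γ+ arrays. It was measured at 9.80, 9.77 and 9.85 on the γ- arrays and at 9.63, 9.67 and 9.79 on the 23/24 arrays. The 3 γ+ arrays lay far below the 9 others. Those of the γ- group lay just above the control arrays without overlap, and 33.4% of all genes had no overlap between these 2 groups. Ckm fell by 1.90 ± 0.06 log2 in the γ+ group against control (SE, n = 3 per group), to 0.268 of the control level on the linear scale (limma adjusted p = 4.5e-13). Its difference between the γ- group and control was 0.15 ± 0.06, with an adjusted p of 0.172 by limma and a 95% confidence interval of 0.01 to 0.29 before adjustment. Between the 23/24 group and control it was 0.04 ± 0.06, with an interval of -0.10 to 0.18.

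Ckb, the brain-type kinase, stood at 8.80, 8.85 and 8.82 in the control arrays and at 7.64, 7.52 and 7.61 in the γ+ arrays. It stood at 8.98, 8.87 and 8.95 in the γ- arrays and at 8.79, 8.73 and 8.82 in the 23/24 arrays. The pattern was that of Ckm with a smaller step, and the γ+ arrays again overlapped no other group. Between the γ+ and control arrays 66.6% of all genes had no overlap. Ckb fell by 1.23 ± 0.06 log2 in the γ+ group, to 0.425 of the control level (SE, n = 3 per group, limma adjusted p = 1.3e-11). It was 0.11 ± 0.06 higher in the γ- group (limma adjusted p = 0.268) and differed by -0.04 ± 0.06 in the 23/24 group (limma adjusted p = 0.875). In such bulk cultures fewer cells of a type and less RNA per cell cannot be told apart. In the γ+ group, where 38.7% of all genes fell and 64.9% were called, all 7 fibroblast markers fell, with a median change of -1.53. The 8 cardiomyocyte markers all fell there as well, with a median change of -1.24. Their summed level was 14.25 to 14.27 on the γ+ arrays against 15.35 to 15.39 in the control. A summed level, here and below, is the log2 of the sum of linear values, so the brightest genes weigh most. Their part in the fall of the creatine kinases was not tested.

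**Figure D1:**
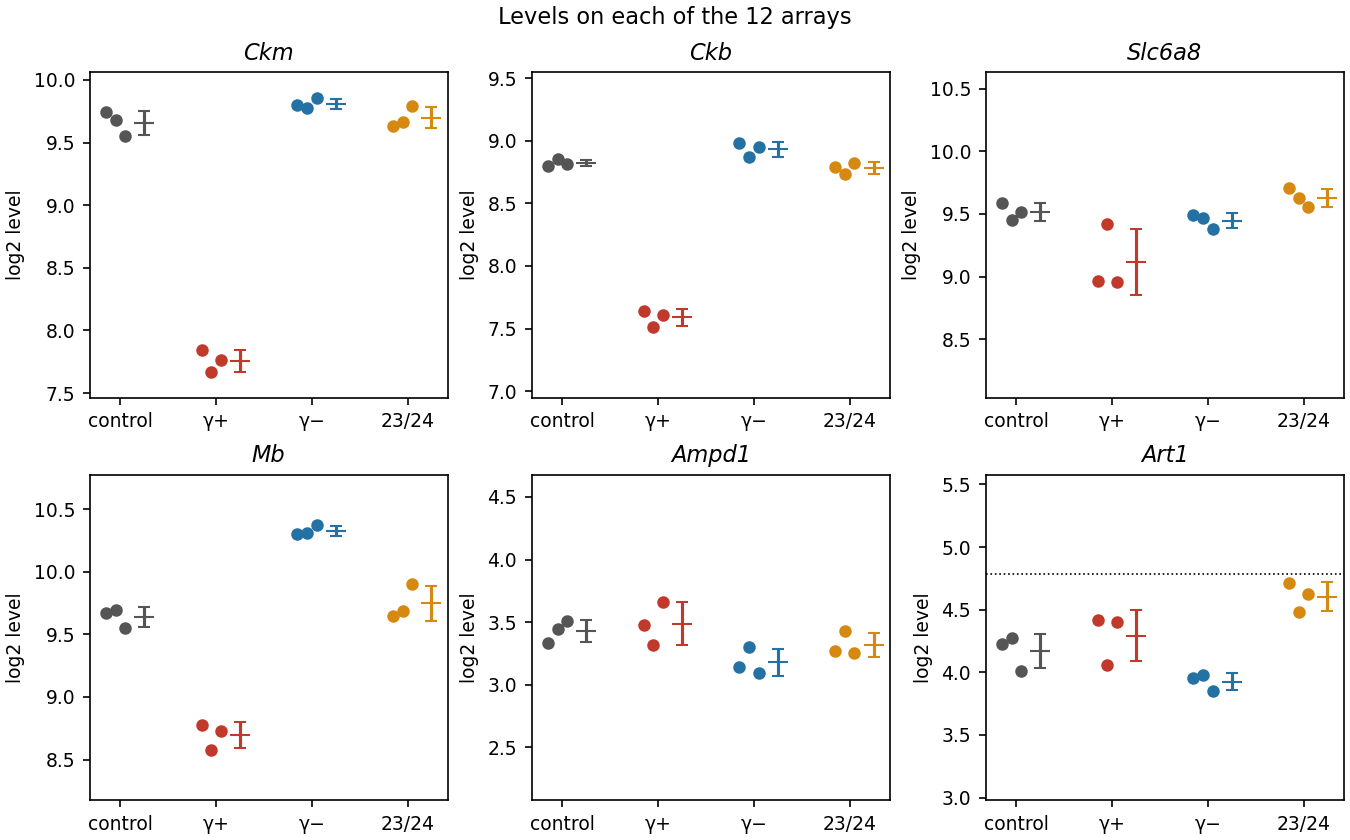
Log2 level (y axis) of the 6 measured genes on each of the 12 arrays, by group (x axis); points are arrays in order of replicate number, and the bar beside them is the group mean with its SD (n = 3). All panels span the same number of log2 units, and the dotted line in the Art1 panel is the filter level of 4.78. Ckm, Ckb and Mb are lowest in the γ+ arrays, and Mb is highest in the γ- arrays at 10.30 to 10.37.

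Slc6a8, the creatine transporter, moved less and was uneven in the γ+ group. Control arrays read 9.59, 9.45 and 9.51 and γ+ arrays 8.97, 9.42 and 8.96. The γ- arrays read 9.49, 9.47 and 9.38, and the 23/24 arrays 9.70, 9.63 and 9.56. Replicate 2 of the γ+ group lay 0.03 below the lowest control array and inside the range of the γ- arrays, while the other γ+ arrays were lower than all 9 arrays of the other groups. The fall against control was 0.40 ± 0.09 log2 (SE, n = 3 per group, limma adjusted p = 0.0014), and without γ+ replicate 2 the change was -0.55. Against the 23/24 group the change was -0.51 ± 0.09 (limma adjusted p = 1.7e-04), and against the γ- group -0.33 ± 0.09 (limma adjusted p = 0.0059). The γ- and 23/24 groups differed from control by -0.07 ± 0.09 and 0.11 ± 0.09, neither of them called (limma adjusted p = 0.716 and 0.765).

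Mb was the one member that differed from control under both the γ+ and the γ- form, and in opposite directions. Control arrays read 9.67, 9.70 and 9.55, and γ+ arrays 8.78, 8.58 and 8.73. The γ- arrays read 10.30, 10.31 and 10.37, and the 23/24 arrays 9.64, 9.69 and 9.90. The γ+, γ- and control arrays formed 3 separate steps with no overlap, and the 23/24 arrays overlapped the control. Of all genes 66.6% had no overlap between γ+ and control, 33.4% between γ- and control and 67.1% between γ+ and γ-. In the γ+ group Mb fell by 0.94 ± 0.07 log2 (SE, n = 3 per group, limma adjusted p = 7.3e-09), to 0.520 of the control level. In the γ- group it rose to 1.61 times the control level (limma adjusted p = 1.4e-04, higher on 3 of 3 arrays), and the γ+ and γ- groups stood 1.63 ± 0.07 log2 apart (limma adjusted p = 9.6e-12). The 23/24 group differed from control by 0.11 ± 0.07, with a 95% interval of -0.04 to 0.26. Against the 23/24 group Mb was 0.58 ± 0.07 higher in the γ- group (limma adjusted p = 4.4e-04).

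Ampd1 and Art1, which skeletal muscle makes in quantity, were near the floor of these arrays. Ampd1, the muscle AMP deaminase, lay between 3.09 and 3.67 on all 12 arrays, with group means of 3.43 (control), 3.49 (γ+), 3.18 (γ-) and 3.32 (23/24). Art1, which attaches ADP-ribose to proteins on the muscle cell surface, had group means of 4.17, 4.29, 3.93 and 4.60 in the same order, with SDs of 0.14, 0.20, 0.07 and 0.12. The 3 Art1 values of the 23/24 group (4.71, 4.48 and 4.62) lay above all 9 other arrays, and those of the γ- group (3.95, 3.98 and 3.85) lay below all 9. Neither gene was tested with the filter. Without a filter, limma gave an adjusted p of 0.0022 for Art1 between the γ- and 23/24 groups, which differed by -0.68 ± 0.12 (SE, n = 3 per group), where 11.3% of 14497 genes were called in either direction and 37.0% had arrays that did not overlap. For Art1 in the 23/24 group against control the difference was 0.43 ± 0.12, with a limma adjusted p of 0.330 (0% of genes called, 16.2% without overlap). Against the γ- group, both genes were called higher in the γ+ group without a filter, Ampd1 by 0.31 and Art1 by 0.37 (limma adjusted p = 0.0291 and 0.0138), where 53.7% of genes were called and 59.5% did not overlap. Art1 differed by -0.31 between the γ+ and 23/24 groups (limma adjusted p = 0.0310, with 57.3% of genes called and 61.5% without overlap). Against control neither gene was called in the γ+ group, with differences of 0.06 for Ampd1 and 0.12 for Art1 (55.4% of genes called, 59.6% without overlap), or in the γ- group, with -0.25 and -0.24 (9.40% and 33.7%). At these levels the order of groups rests on signals below that of 60% of probe sets.

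Set against the background of all genes, the 4 tested members divided by form. In the γ+ group against control all 4 fell and 0 rose, where 38.7% of the 10025 genes fell by the same limma call at an adjusted p under 0.05 and 26.2% rose (64.9% in all). The arrays did not overlap for any of the 4, nor for 66.6% of all genes. All 4 were also lower in the γ+ group than in the γ- group, where 37.5% of genes were lower and 26.7% higher (64.2% in all), with 3 of 4 not overlapping against 67.1% of genes. Against the 23/24 group all 4 were lower in the γ+ group without overlap, where 37.9% of genes were lower, 28.0% higher (65.8% in all) and 67.4% without overlap. With the γ- form against control 1 of 4 was called, Mb, upward, against a background of 3.06% higher, 3.88% lower and 6.94% in all. Mb, Ckm and Ckb did not overlap there, as did not 33.4% of genes. Between the γ- and 23/24 groups again Mb alone was called, higher with γ- (background 4.16% higher, 3.94% lower and 8.10% in all), and Mb, Ckb and Slc6a8 did not overlap, against 36.2% of genes. In the 23/24 group against control limma called 0 of 4 members and 0 of all genes (background 0%), with 899 genes at an unadjusted p under 0.05 and the members' unadjusted p between 0.152 and 0.532. There 0 of 4 members had arrays without overlap, against 17.9% of genes. The 3 comparisons of the γ+ group share the γ+ arrays and those with control share the control arrays, so these counts are not independent of each other. The members' median change was -1.09 in the γ+ group against control, where the median over all genes was -0.07, and 0.13 in the γ- group, where it was -0.01.

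**Figure D2:**
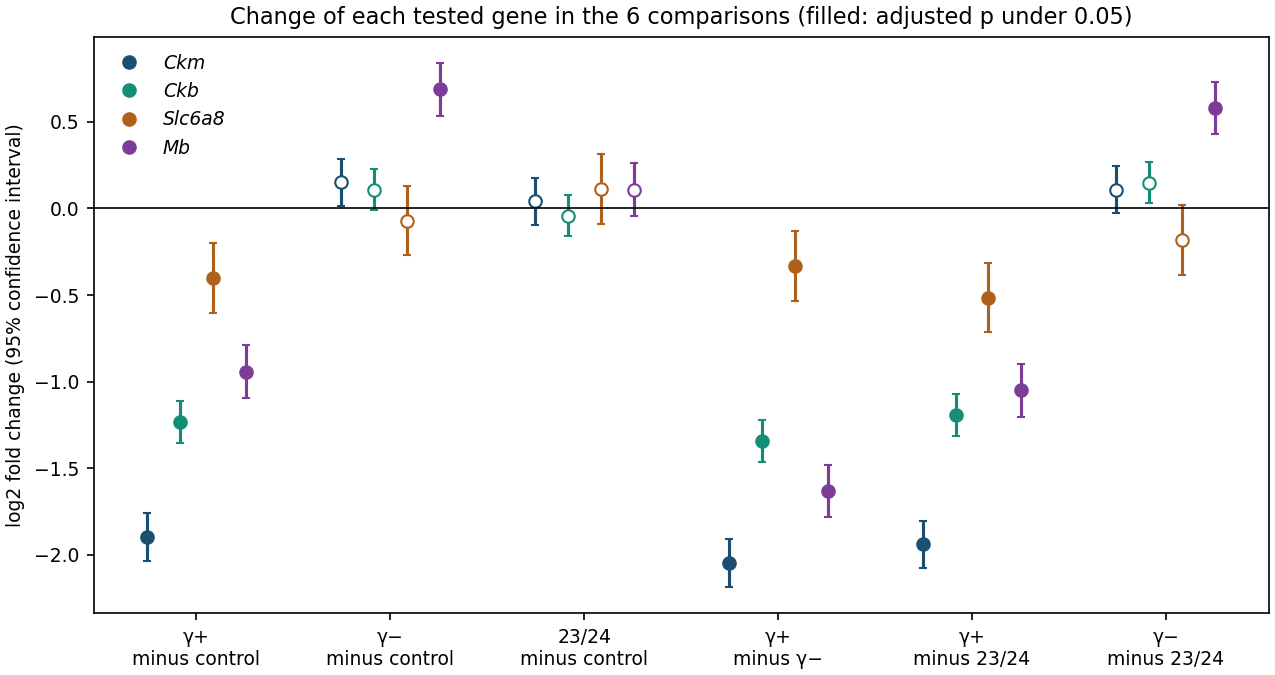
Log2 fold change (y axis) of Ckm, Ckb, Slc6a8 and Mb in each of the 6 comparisons (x axis), with 95% confidence intervals from limma (n = 3 per group); filled points had an adjusted p under 0.05. All 12 changes in the comparisons of the γ+ group are filled and below 0, and Mb is the one filled point in the comparisons of the γ- group with the control and 23/24 groups.

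Rescaling of the arrays moves these backgrounds, and shifts members and other genes alike. With each array centred on its own median, the share of upward calls among all called genes was 51.2% in the γ+ group against control in place of 40.4%, and 58.5% against the 23/24 group in place of 42.5%. Between the γ- and 23/24 groups it was 77.9% in place of 51.4%. The median over all genes moved from -0.07 to 0.07 in the γ+ group against the 23/24 group. Against that shift the centred changes of the members there were -1.80 for Ckm, -1.06 for Ckb, -0.91 for Mb and -0.38 for Slc6a8, and all 4 were still called lower.

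The members held different places among the changes of all genes. In the γ+ group against control, 79 of the 10025 genes had a more negative change than Ckm, 355 than Ckb, 689 than Mb and 2402 than Slc6a8. With the γ- form against control, 9 genes had a more positive change than Mb, whereas 1250 exceeded Ckm and 1893 exceeded Ckb. In the 23/24 group against control 1062 genes had a more positive change than Slc6a8, 1119 than Mb, 2448 than Ckm and 5787 than Ckb. In the γ+ group against the γ- group, 42 genes were more negative than Ckm and 125 more negative than Mb.

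**Figure D3:**
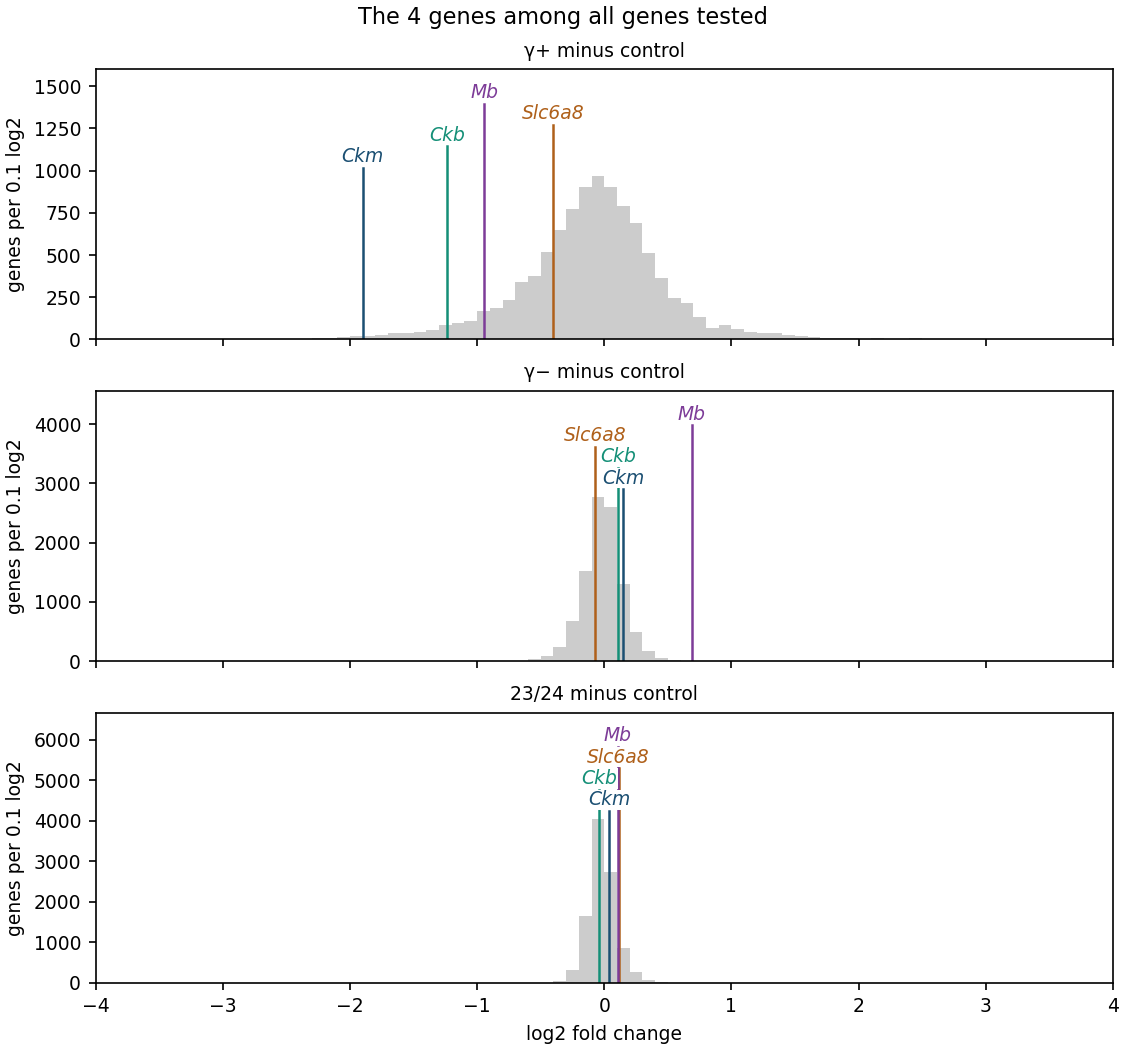
Number of genes per 0.1 log2 (y axis, grey) by log2 fold change against control (x axis) for the 10025 genes tested, in the γ+, γ- and 23/24 groups; coloured lines mark Ckm, Ckb, Slc6a8 and Mb. Ckm (-1.90) stands in the lower tail of the γ+ panel and Mb (0.69) in the upper tail of the γ- panel.

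The members did not change by equal steps. The difference between a pair of genes on the same array is untouched by a constant added to that array, though not by a rescaling that depends on the level. With quantile normalization, the changes in the γ+ group against control were -1.86 for Ckm, -1.21 for Ckb and -0.90 for Mb, the same order as without it. Ckm minus Ckb was 0.74 to 0.94 on the control arrays, 0.82 to 0.91 on the γ- arrays and 0.84 to 0.97 on the 23/24 arrays, and 0.15 to 0.20 on the γ+ arrays. Ckm thus changed by 0.66 log2 more than Ckb in the γ+ group against control, with no overlap. Ckm minus Mb lay between -0.02 and 0.07 on control arrays and between -0.97 and -0.91 on γ+ arrays. It lay between -0.53 and -0.50 on γ- arrays and between -0.11 and -0.01 on 23/24 arrays. It was thus lower than control in the γ+ group, where Ckm fell more than Mb, and in the γ- group, where Mb rose and Ckm was not called. Exact permutation tests of 3 against 3 arrays, 2-sided, gave 0.10 for each of these 3 differences from control, the smallest p such a design allows, and a Benjamini-Hochberg value of 0.138 over the 36 such tests.

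**Figure D4:**
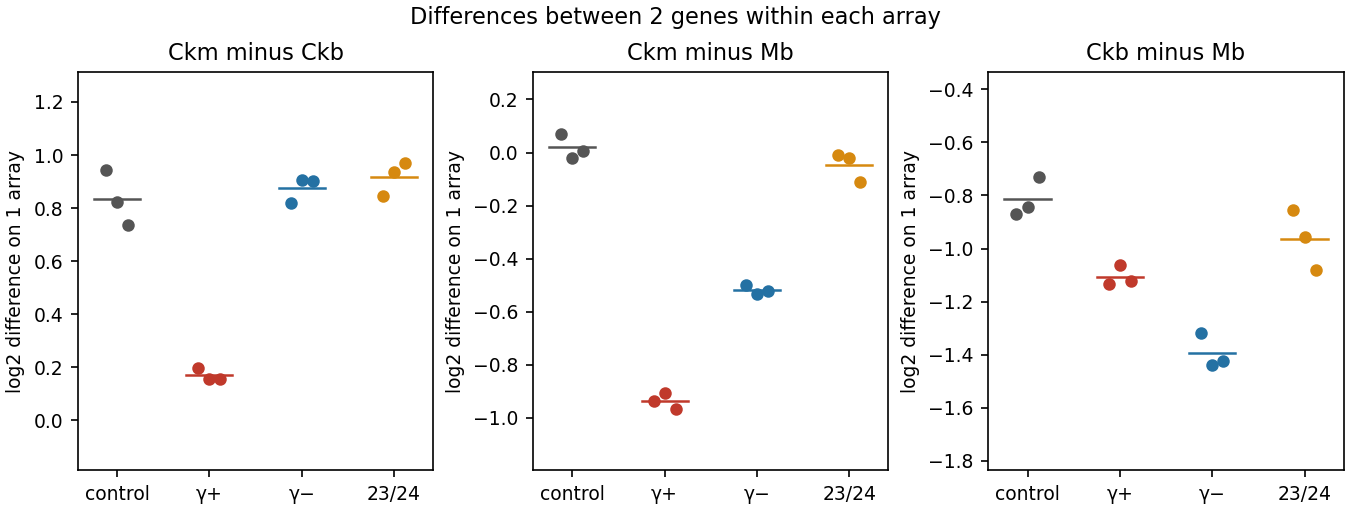
Difference in log2 level between a pair of genes on the same array (y axis), by group (x axis); points are the 3 arrays of a group and lines their mean. Ckm minus Ckb is lower in the γ+ arrays than in all others, and Ckm minus Mb is lower than control in both the γ+ and the γ- arrays.

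The genes with the most similar profiles differed from member to member. Likeness was measured as the root mean square difference of centred log2 values over the 12 arrays, among the genes tested. Nearest to Ckm were Mgp (0.07), which encodes matrix Gla protein, Tmem182 (0.07), a muscle membrane protein, and Pygm (0.08), the muscle glycogen phosphorylase, where the median over genes was 0.83. Nearest to Ckb were the mesenchymal homeobox gene Prrx1 (0.04), Gask1b (0.05) and the integrin-linked kinase gene Ilk (0.05), against a median of 0.53. The genes nearest to Mb were less close: Rgs17, a regulator of G-protein signalling (0.08), the protease gene Adamts1 (0.11) and the LIM-domain gene Lmcd1 (0.12), against 0.58. Adamts1 changed by -1.19 in the γ+ group and 0.59 in the γ- group, and Lmcd1 by -0.88 and 0.51. Rgs17 was close to the filter level, with a mean of 4.81 over the arrays and group means of 4.94 (control), 3.92 (γ+), 5.42 (γ-) and 4.96 (23/24), so its γ+ values were below the filter level and its likeness to Mb rests on low signals. Slc6a8 had Tnfrsf1a, a receptor of tumour necrosis factor (0.08), Nrep (0.08) and Extl3 (0.08) nearest, against 0.27. Between members the closest pair was Ckb and Mb (0.22), with 661 other genes nearer to Ckb than Mb was.

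The rest of the creatine pathway did not move as a block. Ckmt1, the ubiquitous mitochondrial creatine kinase, had a mean level of 7.34 in control cultures and 5.77 with the γ+ form, a change of -1.57 ± 0.07 (SE, n = 3 per group, limma adjusted p = 1.2e-11). It also fell by 0.35 ± 0.07 in the γ- group (limma adjusted p = 0.0097), where Mb rose. Gamt, which completes creatine synthesis, rose by 0.66 ± 0.10 in the γ+ group (limma adjusted p = 2.4e-05), while Gatm, which makes its substrate, was at 7.20 against 7.24 in the control. The list of these 3 genes thus had 1 lower, 1 higher and 1 not called in the γ+ group, with a median of -0.04. This was near the mix among all genes there (38.7% lower, 26.2% higher, median -0.07).

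Among enzymes of adenine nucleotides 12 of 20 listed genes were tested, and 5 fell and 4 rose in the γ+ group (median 0.00), near the 38.7% lower and 26.2% higher among all genes. Nt5e, the surface enzyme that turns AMP into adenosine, changed by -1.21 ± 0.09, and Ak3, the mitochondrial GTP-AMP kinase, by -0.67 ± 0.06. Ak4, another mitochondrial adenylate kinase, rose by 1.39 ± 0.11 from 4.92, close to the filter level of 4.78, and the AMP deaminase gene Ampd2 rose by 0.52 ± 0.06 (SE, n = 3 per group, limma adjusted p at most 2.0e-06 for these 4). With the γ- and 23/24 forms 0 of 12 were called against control by limma, where 6.94% and 0% of all genes were. Of the carriers and pores that pass ATP, ADP and phosphate across mitochondrial membranes, all 6 tested of 7 listed fell in the γ+ group, against 38.7% of all genes, with a median of -0.45. The phosphate carrier gene Slc25a3 changed by -1.02 ± 0.05, the channel gene Vdac1 by -0.68 ± 0.08, and the ADP/ATP exchanger genes Slc25a5 and Slc25a4 by -0.50 ± 0.05 and -0.40 ± 0.05. None of the 6 was called in the γ- or 23/24 group.

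The kinase AMPK senses AMP when ATP runs low, and its genes went both ways in the γ+ group: 3 of 11 fell and 2 rose, with a median of -0.06, no more than among all genes (38.7% lower, 26.2% higher, median -0.07). The catalytic subunit genes went apart, Prkaa2 by -0.69 ± 0.05 and Prkaa1 by 0.72 ± 0.06, and the regulatory Prkag2 changed by -0.93 ± 0.08 and Prkag3 by -0.71 ± 0.09 (SE, n = 3 per group, limma adjusted p at most 5.2e-06). Prkag3 had a mean of 4.79 in the γ+ group, close to the filter level of 4.78. With γ- 1 of 11 was called, Prkab2, where 6.94% of all genes were called. Prkab2, named after its value was seen, rose by 0.46 ± 0.11 (limma adjusted p = 0.0191). It lost the call in 4 of 20 alternatives, each leaving out an array.

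Of the genes of heme synthesis and other globins 9 of 11 were tested, and 5 fell and 0 rose in the γ+ group (median -0.30), where 38.7% of all genes fell and 64.9% were called. Alas1, the rate-limiting enzyme of heme synthesis, changed by -1.04 ± 0.05, the globin genes Cygb by -0.46 ± 0.08 and Ngb by -0.43 ± 0.14, and Uros, of heme synthesis, by -0.65 ± 0.12 (SE, n = 3 per group, limma adjusted p from 2.3e-11 to 0.0137). Ngb lost its call without control replicate 3 (limma adjusted p = 0.0917). Beside the rise of Mb in the γ- group, 0 of these 9 genes were called there by limma, where 6.94% of all genes were. With the filter at the 60th percentile 2 genes of this list were called lower and 1 higher in the γ+ group, and with the arrays centred on their medians 2 of the 9 were called higher.

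Of 16 genes of oxygen sensing and the response to hypoxia, 9 fell and 2 rose in the γ+ group, with a median of -0.25, where 38.7% of all genes fell and 64.9% were called. Egln3, a prolyl hydroxylase that marks HIF proteins for removal, changed by -1.29 ± 0.05, the growth factor gene Vegfa by -0.84 ± 0.07, Epas1, which encodes HIF-2α, by -0.66 ± 0.06 and P4ha1, a collagen prolyl hydroxylase, by -0.61 ± 0.07 (SE, n = 3 per group, limma adjusted p at most 9.3e-07). With γ- Egln3 and Vhl were called higher and Ddit4 lower, where 3.06% of all genes were higher and 3.88% lower (6.94% in all). Vhl and Ddit4 were named after their values were seen. The calls of Egln3, Vhl and Ddit4 were lost in 8, 4 and 7 of 21 alternatives. Of the relatives and substrates of Art1, 3 of 6 were tested, and Art3 and the integrin gene Itga7 fell in the γ+ group, with changes of -1.40 ± 0.06 and -1.21 ± 0.07 (limma adjusted p = 4.0e-12 and 1.4e-10), while Art1 itself was below the filter.

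**Figure D5:**
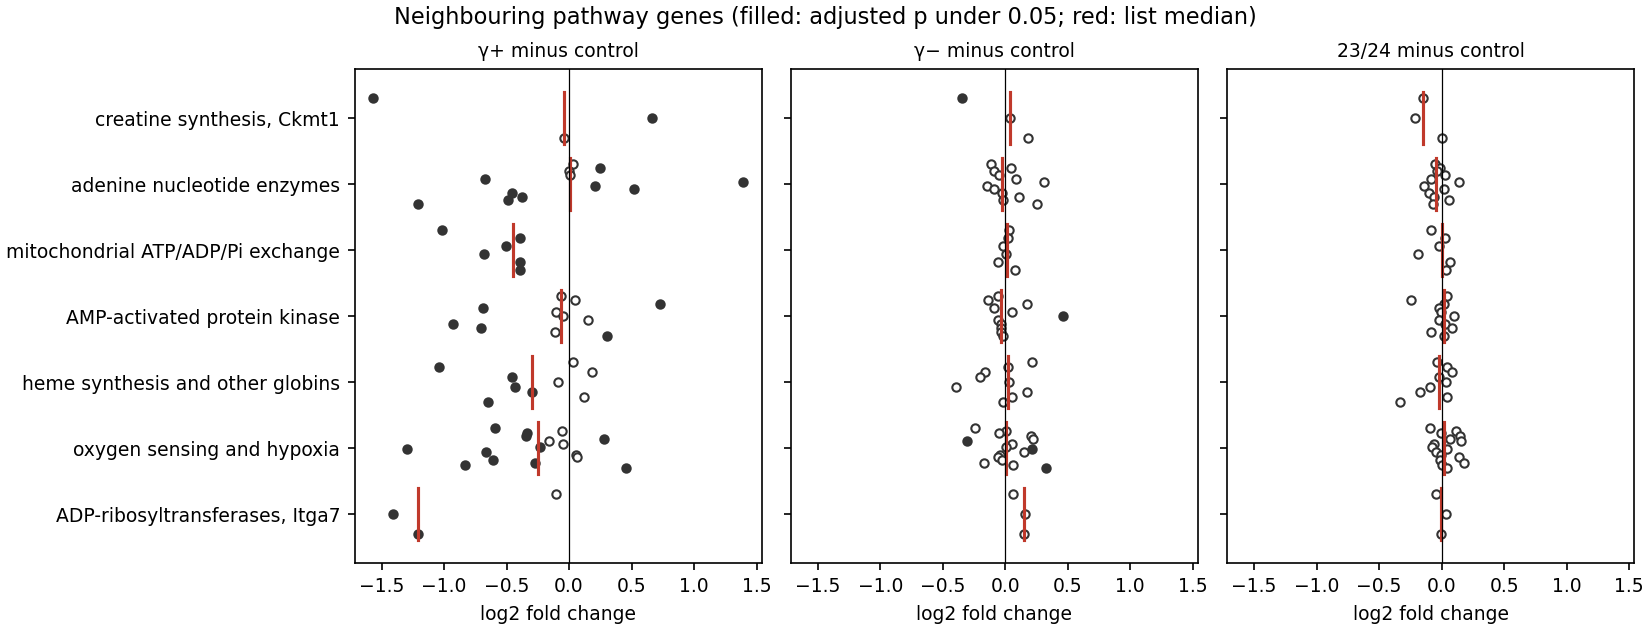
Log2 fold change against control (x axis) of the tested genes of each neighbouring pathway list (y axis), in the γ+, γ- and 23/24 groups; filled points had a limma adjusted p under 0.05 and the red line is the list median. In the γ+ panel the 6 mitochondrial exchange genes are all filled and below 0, and in the 23/24 panel no point is filled.

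Markers of other cell types moved along with the members in the γ+ group, where 38.7% of all genes fell and 64.9% were called. All 7 fibroblast markers fell there, with a summed level of 11.58 to 11.69 on the γ+ arrays against 13.11 to 13.15 on the control arrays. All 5 endothelial markers fell as well, as did 3 of 4 smooth muscle and 3 of 4 tested macrophage or leukocyte markers, with summed levels of 8.03 to 8.15, 11.51 to 11.61 and 8.78 to 8.83 against 8.88 to 8.94, 12.46 to 12.54 and 9.32 to 9.33 in the control. The macrophage or leukocyte sum held all 6 measured markers, of which Ptprc and C1qa lay below the filter. Of 3 tested skeletal muscle markers 2 fell, and all 7 measured summed to 7.12 to 7.19 against 7.44 to 7.51. The 3 atrial markers fell, with a median change of -1.75 and summed levels of 12.82 to 12.97 against 13.54 to 13.61. That sum is set mostly by Nppa, which had a mean of 13.22 over the arrays, against 9.84 for Myl7 and 8.37 for Sln. Of 5 neuron or glia markers, which bear on the brain-type kinase Ckb, 1 was above the filter, Tubb3, and it fell; the 4 measured summed to 6.47 to 6.69 on the γ+ arrays against 7.06 to 7.12 in the control. Snap25, Gfap and S100b lay below the filter. In the γ- group, where Mb rose, the cardiomyocyte markers summed to 15.38 to 15.40 against 15.35 to 15.39 in the control, with Myh6 the 1 of 8 called, upward. Fibroblast and endothelial sums were lower there without overlap, at 13.03 to 13.04 against 13.11 to 13.15 and at 8.65 to 8.75 against 8.88 to 8.94, with Col3a1 called lower of 7 fibroblast markers and Tie1 and Tek of 5 endothelial markers (6.94% of all genes called, 3.88% lower). The 7 measured skeletal muscle markers summed to 7.35 to 7.44 against 7.44 to 7.51, with 0 of 3 tested markers called. Of the smooth muscle, macrophage or leukocyte, atrial and neuron or glia markers tested, 0 were called with γ-. The part of other cell types in the fall of the members with γ+, or in the rise of Mb with γ-, was not tested.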

How the data were processed

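Each of 12 arrays measured total RNA (2 µg labelled) from 1 cardiomyocyte culture sample. The authors deposited 1 table of 28826 probe sets, whose values were taken as log2 from their range. Per the submitters' processing notes MAS5 was used. How background and scaling were handled is not given in the sources used here, nor is the log base. Whether MAS5 gave the equal values shared by some arrays was not tested. The number of arrays limits the precision. The probe table gave 1 gene symbol for 15209 probe sets, several for 306 and none for 13311; symbols were updated through Entrez identifiers. Those averaging above the 40th percentile (4.78) were kept, and the one of highest mean stood for each gene.

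Groups came from the sample titles. The test was limma 3.58.1 under R 4.3.3 (group means over all 12 arrays, 8 residual degrees of freedom, eBayes with an intensity trend). Benjamini-Hochberg adjustment was made over all 10025 genes within each of 6 comparisons, and genes were called at an adjusted p under 0.05. The procedure was tested on simulated data with changes in the γ+ group alone, in 50 of 10025 genes at each size. In the real data 64.9% of genes were called in the γ+ group against control. The simulation thus does not measure false calls at such a share, and it held no separate normalization runs. Against control the procedure recovered 22% of changes of 0.25 log2, 86% of 0.5 and 100% of 1 and 2. False calls there were 20 of 174. They were 5 of 160 in γ+ against γ-, 5 of 161 in γ+ against 23/24, and 2 of 2 in γ- against control. Members and lists were chosen with earlier results of these data known. Of each list the text names up to 4 called genes of lowest adjusted p in the γ+ group against control, and for each member whose group means span at least 0.5 log2 its 3 nearest genes; Gatm, outside this rule, was named after its value was seen. Alternatives were other scalings, filters, probe set means, variance settings, a replicate block, the 6 compared arrays alone and leaving out each array.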

Additional observations from a re-analysis of the deposited data

How the results depend on the processing

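All called changes of Ckm, Ckb, Slc6a8 and Mb kept their direction and stayed under an adjusted p of 0.05 by limma in all 21 alternatives, with a highest adjusted p of 0.0358 (Slc6a8, γ+ against γ-). The change of Ckm in the γ+ group against control ran from -1.95 to -1.81, of Ckb from -1.26 to -1.15, of Mb from -0.99 to -0.85 and of Slc6a8 from -0.55 to -0.31, and that of Mb in the γ- group from 0.64 to 0.72. In the γ- group against the 23/24 group, 2 members were called higher and 1 lower with array weights and with the 6 compared arrays alone, in place of 1 and 0. Leaving out an array gave 1 to 2 higher and 0 to 1 lower there; without γ+ replicate 2 the added calls were Ckb (0.15, limma adjusted p = 0.0326) and Slc6a8 (-0.18, limma adjusted p = 0.0144). Between the γ+ and 23/24 groups, the difference of Adss2 went from -0.01 to 0.14 with array weights, and that of Egln1 from 0.02 to -0.24 with the mean over probe sets; both were called there, and the cause was not tested.

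Same-numbered arrays did not deviate together (r across genes from -0.22 to 0.12 over 18 pairs, 1 of them above 0.1). Arrays of different number gave r from -0.23 to 0.26 over 36 pairs, 9 of them above 0.1. The numbers thus gave no sign of a pairing, but deviations from means of 3 arrays cannot exclude one. With the replicate block Ckm changed by -1.90 in the γ+ group (limma adjusted p = 2.4e-11) and Mb by 0.69 in the γ- group (limma adjusted p = 5.3e-04), and no call of a member changed. The block moved the calls over all genes from 696 to 514 in the γ- group against control. That count was 436 with median centring, 1745 with array weights, 1363 without a filter, 425 with the 60th-percentile filter, 1373 with the 6 compared arrays alone, and 267 to 1665 leaving out an array (1665 without γ+ replicate 2; 313, 332 and 343 without control replicates 1 to 3; 275, 267 and 284 without γ- replicates 1 to 3). In the γ- group against the 23/24 group it was 812, and 2528 with array weights, 1641 without a filter, 488 with the stricter filter, 1760 with the 6 arrays alone, and 263 to 1838 leaving out an array (1838 without γ+ replicate 2; 263, 463 and 317 without γ- replicates 1 to 3; 309, 359 and 529 without 23/24 replicates 1 to 3). In the 23/24 group against control limma called 220 genes with array weights, 58 without γ+ replicate 2, 1 with quantile normalization and 1 without control replicate 2.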
